A study of Homo sapiens with 12 samples.

Results

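LFNG and the Notch pathway are described here in Huh7, an established cell line from a human hepatoma, given recombinant erythroferrone (ERFE) or left untreated. The members are 10 genes of the pathway, taken by symbol from the platform annotation with every probe each of them has: LFNG, MFNG, RFNG, NOTCH1, NOTCH2, NOTCH3, JAG1, JAG2, HES1 and HEY1. They are 10 of 20046 named genes and hold 18 of the 47323 probes on the array, and LFNG has 3 of these, which are kept apart throughout. The members were chosen by the normalized signal of LFNG, which had been seen to be higher after ERFE in these same arrays, and the others for their place in its pathway, so the values of LFNG against untreated cells are given as a description with no test.

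The 12 Illumina HT-12 v4 arrays fell into 3 groups of 4: cells given recombinant human ERFE, cells given recombinant mouse ERFE and untreated cells. Both proteins were given at 10 µg/ml for 24 h, and all groups were the same cell line with no genetic change named. Red cell precursors release ERFE as a hormone, and it binds bone morphogenetic proteins (BMPs) and lowers hepcidin in the liver. Cells given vehicle or another protein were not analysed here, so an effect of ERFE itself and one of the protein preparation cannot be told apart. Nothing in the labels says that replicates were separate cultures, so the p-values measure only how these arrays vary among themselves, and that spread may be technical. Replicate 3 is the title of 2 mouse ERFE arrays, and they are called 3-A4 and 3-B4 after the codes that open their titles. The SD of their difference was 0.291 on the log2 scale. This is near the low end of the 0.288 to 0.404 of the 18 pairs of arrays of the same group, which include this pair. That range cannot tell whether they are separate replicates, and they were kept as separate samples.

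Notch receptors are surface proteins that are activated by ligands on a neighbouring cell, the Delta-like and Jagged proteins. Activation leads to cleavage of the receptor, and its intracellular part joins the DNA-binding protein RBPJ to switch on target genes such as HES1 and HEY1. The 3 Fringe enzymes, LFNG, MFNG and RFNG, work in the Golgi and lengthen the O-fucose sugars on the receptor's extracellular repeats, which changes how the receptor responds to each kind of ligand. In the liver the pathway is known above all for bile duct formation, which needs JAG1.

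The sequence just before the transcription start is shown for LFNG, the gene the members were gathered around, and for HES1, a textbook target with RBPJ sites before its start. Each is the 250 bases upstream of a start in RefSeq on GRCh38.p14, read 5′ to 3′ on the strand of the gene, with the RBPJ core TGGGAA in capitals. Both strands were searched, and the motif does not overlap another searched motif, since it was the only one.

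LFNG start at the first position, chr7:2512279-2512528 on the plus strand: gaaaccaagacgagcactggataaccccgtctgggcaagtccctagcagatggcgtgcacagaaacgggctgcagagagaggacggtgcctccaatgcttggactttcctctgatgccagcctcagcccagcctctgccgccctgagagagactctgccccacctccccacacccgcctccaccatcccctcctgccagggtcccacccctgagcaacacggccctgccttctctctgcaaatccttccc
LFNG start at the second position, chr7:2517613-2517862 on the plus strand: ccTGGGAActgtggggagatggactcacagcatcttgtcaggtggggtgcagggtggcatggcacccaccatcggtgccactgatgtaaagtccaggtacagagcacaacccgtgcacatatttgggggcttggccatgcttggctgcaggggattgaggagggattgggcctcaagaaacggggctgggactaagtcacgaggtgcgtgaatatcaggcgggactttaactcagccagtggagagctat
HES1, chr3:194135898-194136147 on the plus strand: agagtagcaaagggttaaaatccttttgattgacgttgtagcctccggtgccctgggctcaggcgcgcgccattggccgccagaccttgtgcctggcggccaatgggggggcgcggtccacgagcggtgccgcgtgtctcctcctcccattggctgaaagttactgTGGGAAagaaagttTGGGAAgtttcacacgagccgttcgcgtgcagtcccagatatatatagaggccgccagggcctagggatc

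The HES1 window held the core 2 times, beginning 84 and 70 bases before the start. The first LFNG window held no match and the second held 1, beginning 248 bases before the start. HEY1 was not searched. Of the 9 members searched, 8 were matched in the table, with 9 windows, and MFNG was not. The second LFNG window and the HES1 window were the 2 with a match. Among all 35116 windows of the same length 20.8% held at least 1 match and 2.9% held at least 2. A match is only a run of letters, and no binding was measured here. Other forms of the site were not searched, so the matches need not be the sites known for HES1.

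The labels were checked against markers. All 9 hepatocyte genes with a probe, among them ALB and AFP, were detected on all 12 arrays. Array medians ran from 139.5 to 186.3 in raw signal, and 34.5% to 39.1% of probes were detected, that is, had a detection p under 0.05 against the negative controls. Transcripts of MHC class II, which antigen-presenting cells are known for, were high on 6 arrays and low on the other 6. Their mean log2 over 5 genes was 7.84 to 9.18 on human ERFE arrays 1 and 3, mouse ERFE array 1 and untreated arrays 1 to 3, and 5.66 to 6.62 on the rest. The range was 6.46 to 8.21 over human ERFE arrays, 6.04 to 8.99 over mouse ERFE arrays and 5.66 to 9.18 over untreated arrays. Of the 9 listed class II genes, 8 had a probe, 3 were detected on all arrays and 3 on none, CIITA among these. Their summed raw signal was 1536 to 3250 on human ERFE arrays, 1387 to 6070 on mouse ERFE arrays and 1515 to 4914 on untreated arrays. Of the 8 listed leukocyte genes, 7 had a probe: CD14, CD68 and LYZ were detected on all 12 arrays, CD79A on 8, MS4A1 on 1, and PTPRC and CD3E on none. Their summed raw signal was 14468 to 16873 on human ERFE arrays, 11716 to 17924 on mouse ERFE arrays and 11680 to 15987 on untreated arrays. LYZ made up most of this sum, with a highest raw signal of 15555, against 1108 for CD68.

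LFNG was higher with both proteins at the bright probe ILMN_1663080. Normalized log2 signal there was 9.46, 9.52, 9.49 and 9.73 in human ERFE cells, 9.31, 9.43, 9.66 and 9.50 in mouse ERFE cells, and 8.82, 8.97, 8.85 and 8.93 in untreated cells. Every array of either ERFE group was above every untreated array, and the ERFE groups overlapped each other. The means were 9.55 ± 0.12 with human ERFE, 9.47 ± 0.15 with mouse ERFE and 8.89 ± 0.07 in untreated cells (SD, n = 4 each). The difference from untreated cells was 0.66 ± 0.10 (SE) on the log2 scale with human ERFE, a 1.58-fold signal, and 0.58 ± 0.10 with mouse ERFE, a 1.49-fold signal. Between human and mouse ERFE the difference was 0.08, with a 95% interval of -0.13 to 0.29 and an adjusted p of 0.999 from limma, so the 2 highest groups did not differ beyond their spread.

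The raw signal of this probe shows how far that pattern rests on scaling the arrays to each other. It was 798, 967, 1034 and 918 in human ERFE cells, 983, 642, 834 and 716 in mouse ERFE cells, and 648, 526, 533 and 701 in untreated cells. Raw human ERFE values lay above all untreated values, whereas mouse ERFE array 2 was below the highest untreated array. As a multiple of the median of its own array the signal was 5.08 to 6.33 with human ERFE, 4.60 to 5.42 with mouse ERFE and 3.61 to 4.10 in untreated cells, again with no overlap between either ERFE group and untreated cells.

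**Figure D1:**
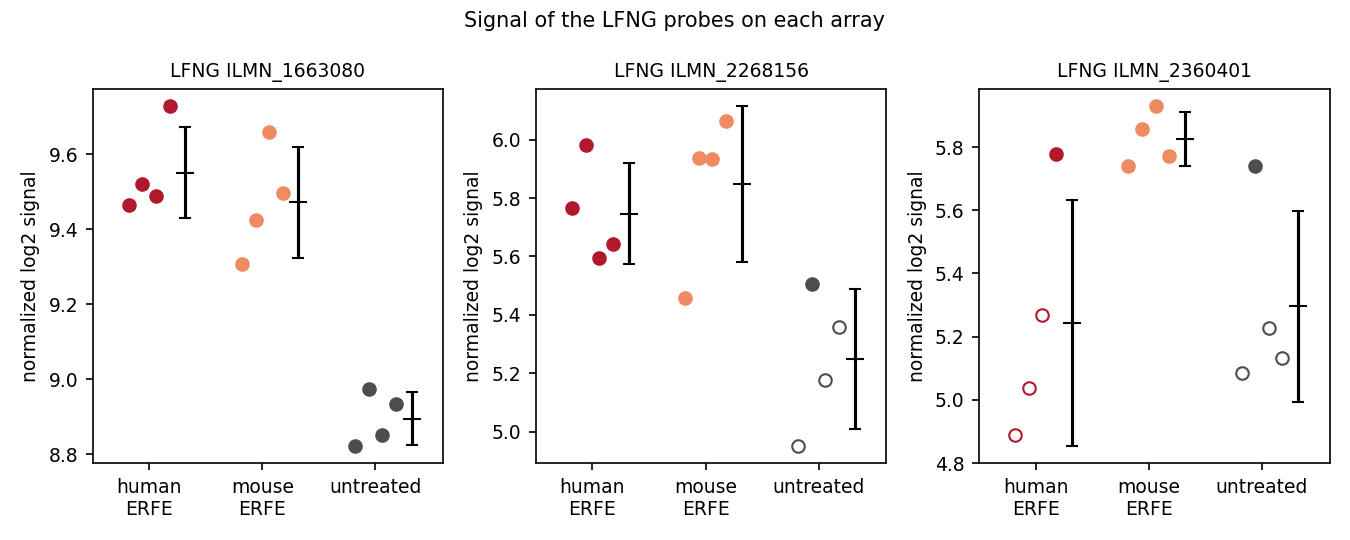
Normalized log2 signal (y axis, a separate range in each panel) of each LFNG probe on the 4 human ERFE, 4 mouse ERFE and 4 untreated arrays; filled points have a detection p under 0.05, open points do not, and bars are mean and SD. At ILMN_1663080 all ERFE arrays lie at 9.31 or above and all untreated arrays at 8.97 or below, while the other panels hold open points, near background.

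The other 2 LFNG probes were dim, and their annotation names another RefSeq transcript than that of ILMN_1663080. ILMN_2268156 was detected on 4 of 4 human ERFE arrays, 4 of 4 mouse ERFE arrays and 1 of 4 untreated arrays. It thus met the minimum of 4 arrays for testing through the ERFE groups, where it was higher. Its log2 signal was 5.77, 5.98, 5.59 and 5.64 with human ERFE, 5.46, 5.94, 5.93 and 6.06 with mouse ERFE, and 4.95, 5.51, 5.18 and 5.36 in untreated cells. Human ERFE arrays were all above untreated arrays, whereas mouse ERFE array 1 was below untreated array 2. The differences were 0.50 ± 0.15 (SE) with human ERFE and 0.60 ± 0.15 with mouse ERFE. Since LFNG was chosen for its rise and the filter favoured this probe, nothing is read from their direction. Raw signal overlapped, at 171.1 to 202.5 with human ERFE, 165.5 to 207.4 with mouse ERFE and 153.6 to 186.2 in untreated cells. As a multiple of the array median it did not overlap untreated cells, at 1.153 to 1.253 with human ERFE, 1.113 to 1.233 with mouse ERFE and 0.987 to 1.109 in untreated cells.

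ILMN_2360401 gave another picture. It was detected on 1 of 4 human ERFE arrays, 4 of 4 mouse ERFE arrays and 1 of 4 untreated arrays. It thus met the minimum of 4 arrays for testing only through mouse ERFE, the group where it was high. Its log2 signal was 4.89, 5.04, 5.27 and 5.78 with human ERFE, 5.74, 5.86, 5.93 and 5.77 with mouse ERFE, and 5.08, 5.74, 5.23 and 5.13 in untreated cells. Mouse ERFE arrays were all above the untreated arrays, with untreated array 2 just under the lowest of them, and human ERFE arrays overlapped both other groups. The difference from untreated cells was -0.05 ± 0.18 (SE) with human ERFE and 0.53 ± 0.18 with mouse ERFE. Human minus mouse ERFE was -0.58 (95% interval -0.98 to -0.18). The unadjusted limma p was 0.00799 and the adjusted p 0.866 over all 18646 tested probes, so this difference did not pass. Since the filter favoured this difference, nothing is read from its interval or p. The LFNG probes therefore gave differing values for human ERFE, and on the mean of a gene's probes LFNG stood 0.37 above untreated cells in place of 0.66.

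Arrays high in MHC class II were spread unevenly over the groups, and LFNG was read beside them. On the 6 arrays low in class II, ILMN_1663080 was at 9.52 and 9.73 in the 2 human ERFE arrays, 9.43, 9.66 and 9.50 in the 3 mouse ERFE arrays and 8.93 in the 1 untreated array. On the 6 high arrays it was at 9.46 and 9.49 with human ERFE, 9.31 with mouse ERFE, and 8.82, 8.97 and 8.85 in untreated cells. With only the low arrays the difference was 0.69 ± 0.18 (SE) for human ERFE and 0.59 ± 0.17 for mouse ERFE, against a single untreated array. With the class II level as a covariate the difference at ILMN_1663080 was 0.61 ± 0.09 (SE) with human ERFE. The part of class II transcripts in the LFNG values was not tested further. Array titles also open with a letter from A to C, of unstated meaning. Within each letter the difference was 0.62 to 0.66 with human ERFE and 0.49 to 0.76 with mouse ERFE. Within each title number that held both groups, it was 0.64 to 0.82 with human ERFE and 0.49 to 0.65 with mouse ERFE. Each of these differences rests on only 1 or 2 arrays per group.

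Both other Fringe enzymes stayed near background, and so did several receptors and ligands. MFNG had 1 probe, RFNG 2, NOTCH2 3, NOTCH3 1 and JAG2 3, and none of these 10 probes, nor the second HEY1 probe ILMN_2407308, was detected on 4 arrays, the minimum for testing. The raw signals of the 11 probes ran from 118.8 to 220.9, or 0.825 to 1.19 times the array median. Of these, 9 were detected on no array. MFNG ILMN_1764577 was detected on human ERFE array 1 alone, and NOTCH2 ILMN_2405297 on mouse ERFE array 1 alone. NOTCH2 has near-identical copies in the human genome, so its probes may not be specific to it. Signals this dim give no order between the groups.

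**Figure D2:**
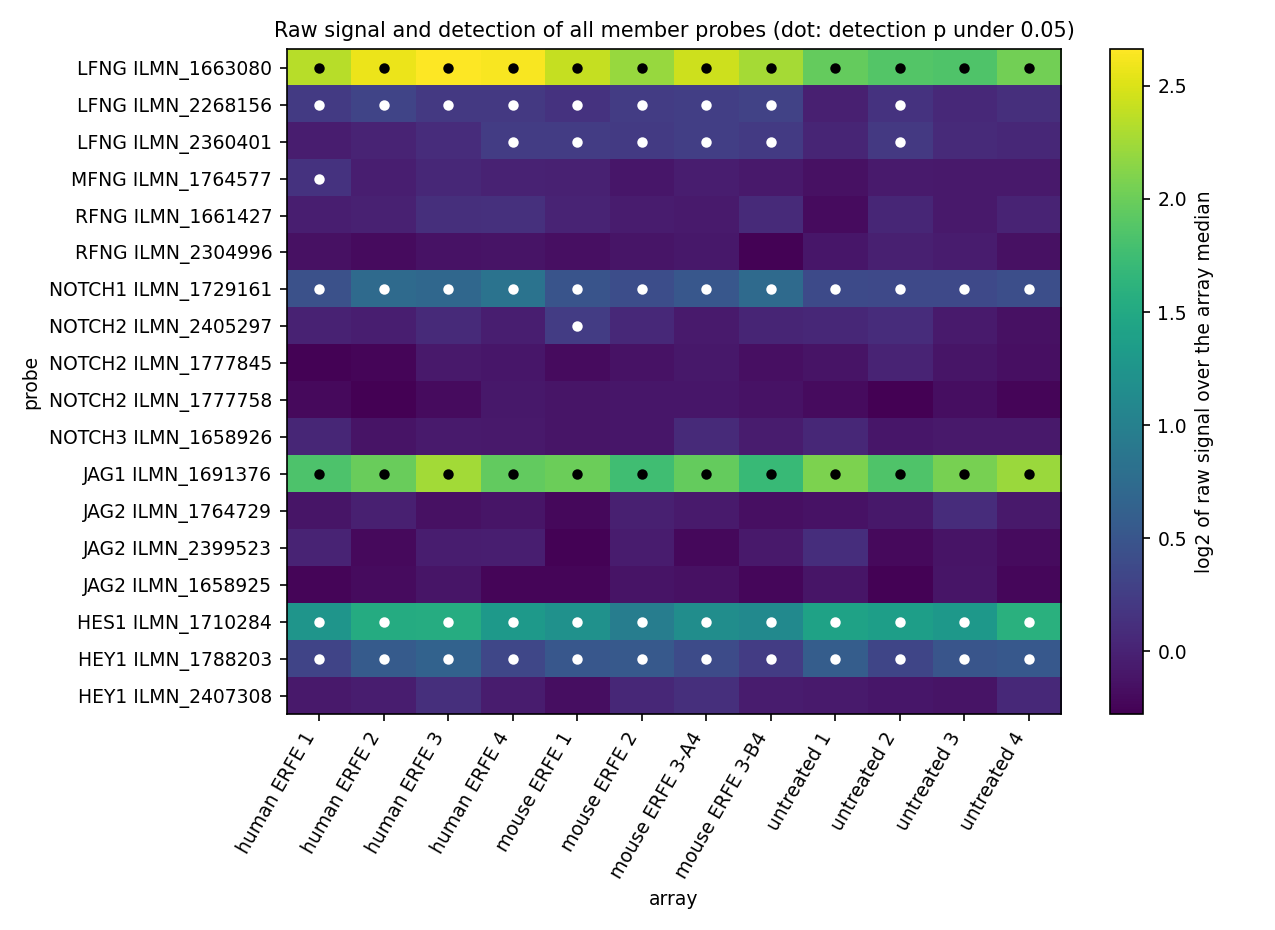
Log2 of raw signal over the median of the array (colour scale) for all 18 member probes (rows) on the 12 arrays (columns, human ERFE, mouse ERFE, untreated); a dot marks a detection p under 0.05. The rows with dots on all arrays are LFNG ILMN_1663080, NOTCH1, JAG1, HES1 and HEY1 ILMN_1788203, and colours of different rows are not a comparison of transcript amounts.

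That left 7 tested probes of 5 genes, the 3 of LFNG and 1 each of NOTCH1, JAG1, HES1 and HEY1. With human ERFE against untreated cells, 0.0912% of all tested probes were called at an adjusted p under 0.05 (17 of 18646) and 3.74% had arrays that did not overlap (1.98% higher, 1.76% lower). With mouse ERFE these shares were 0.123% (23 probes) and 6.1% (2.67% higher, 3.43% lower). Between human and mouse ERFE they were 0.00536% (1 probe) and 2.48% (1.46% higher, 1.01% lower). Of the 4 tested probes outside LFNG, 0 were called in any of the 3 comparisons by limma. At an unadjusted p under 0.05, NOTCH1 met the limit in both ERFE comparisons, and HES1 in that of mouse ERFE with untreated cells and that of human with mouse ERFE. Of all tested probes, 6.64% met that limit with human ERFE, 10.7% with mouse ERFE and 5% between human and mouse ERFE. LFNG ILMN_1663080 was among the called probes of both ERFE comparisons, which is what it was chosen for, and nothing is read from it. The mouse ERFE call also ended under at least 15 of 28 alternatives, in which no probe was called higher with mouse ERFE, 7 of them leaving out 1 array. The human ERFE call ended under at least 1 of the 28 alternatives, the one without the 6 arrays high in class II, which leaves 1 untreated array. It was not followed through the others, so it is not known to hold in them. On the mean of a gene's probes the human ERFE difference of LFNG was 0.37 ± 0.11 (SE).

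NOTCH1, a receptor that LFNG acts on, had higher normalized values with both proteins without passing the test. Its log2 signal was 6.50, 6.93, 6.71 and 7.23 with human ERFE, 6.38, 6.49, 6.69 and 7.21 with mouse ERFE, and 6.19, 6.28, 6.24 and 6.29 in untreated cells. All ERFE arrays were above all untreated arrays, and the ERFE arrays were far more spread out (SD 0.31 and 0.37, against 0.05 in untreated cells). The difference was 0.59 ± 0.18 (SE) with human ERFE, adjusted limma p 0.490, and 0.44 ± 0.18 with mouse ERFE, adjusted limma p 0.404. Raw signals overlapped, at 215.5 to 270.0 with human ERFE, 186.7 to 260.8 with mouse ERFE and 184.7 to 230.3 in untreated cells. As a multiple of the array median, NOTCH1 was 1.371 to 1.790 with human ERFE, 1.338 to 1.674 with mouse ERFE and 1.292 to 1.347 in untreated cells. On that scale human ERFE did not overlap untreated cells, whereas mouse ERFE array 2 was below untreated array 4. NOTCH1 was higher where class II was low inside the human ERFE group. The low arrays 2 and 4 were at 6.93 and 7.23 and the high arrays 1 and 3 at 6.50 and 6.71. Mouse ERFE array 1, high in class II, held the lowest NOTCH1 value of its group (6.38). Untreated array 4, low in class II, held the highest of its group (6.29), by a small margin. With the class II level as a covariate the difference was 0.49 with human ERFE and 0.31 with mouse ERFE, and without the 6 arrays high in class II it was 0.79 and 0.51. With no background correction it was 0.25 with human ERFE and 0.19 with mouse ERFE, and without mouse ERFE array 3-B4 it was 0.27 with mouse ERFE. The part of class II transcripts in these values was not tested further. Human minus mouse ERFE was 0.15 (95% interval -0.24 to 0.54, adjusted limma p 0.999).

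JAG1, the one member ligand that could be tested, overlapped between all groups. Its log2 signal was 8.86, 8.80, 9.01 and 8.93 with human ERFE, 8.81, 8.88, 9.08 and 8.77 with mouse ERFE, and 8.95, 8.94, 9.11 and 9.15 in untreated cells. Untreated arrays 3 and 4 held the highest values. The difference from untreated cells was -0.14 ± 0.09 (SE) with human ERFE, adjusted limma p 0.838, and -0.16 ± 0.09 with mouse ERFE, adjusted limma p 0.609. Between human and mouse ERFE it was 0.02 (95% interval -0.19 to 0.22, adjusted limma p 0.999).

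HES1, a repressor that Notch switches on, was lowest with mouse ERFE. Its log2 signal was 8.03, 8.21, 8.07 and 8.001 with human ERFE, 7.71, 7.67, 7.95 and 7.90 with mouse ERFE, and 8.09, 8.28, 8.07 and 8.33 in untreated cells. Mouse ERFE arrays were all below the arrays of both other groups, which overlapped each other. Against untreated cells the difference was -0.12 ± 0.10 (SE) with human ERFE, adjusted limma p 0.884, and -0.39 ± 0.10 with mouse ERFE, adjusted limma p 0.171. Human minus mouse ERFE was 0.27 (95% interval 0.06 to 0.48) with an adjusted limma p of 0.884, so neither difference passed over all probes. Within title letters, with 1 or 2 arrays per group, the difference between mouse ERFE and untreated cells was -0.67 to -0.24. Without the 6 arrays high in class II it was -0.50. With no background correction the HES1 difference was -0.26 with mouse ERFE against untreated cells and 0.18 between human and mouse ERFE, the second of which was 0.43 with median centring.

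HEY1, a repressor of the same family, varied more within groups than between them. At ILMN_1788203 its log2 signal was 6.11, 6.58, 6.61 and 6.12 with human ERFE, 6.47, 6.80, 6.33 and 5.86 with mouse ERFE, and 6.69, 6.19, 6.59 and 6.53 in untreated cells. The groups overlapped widely. The difference from untreated cells was -0.15 ± 0.19 (SE) with human ERFE, adjusted limma p 0.944, and -0.13 ± 0.19 with mouse ERFE, adjusted limma p 0.892. Human minus mouse ERFE was -0.01 (95% interval -0.43 to 0.41, adjusted limma p 0.999).

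**Figure D3:**
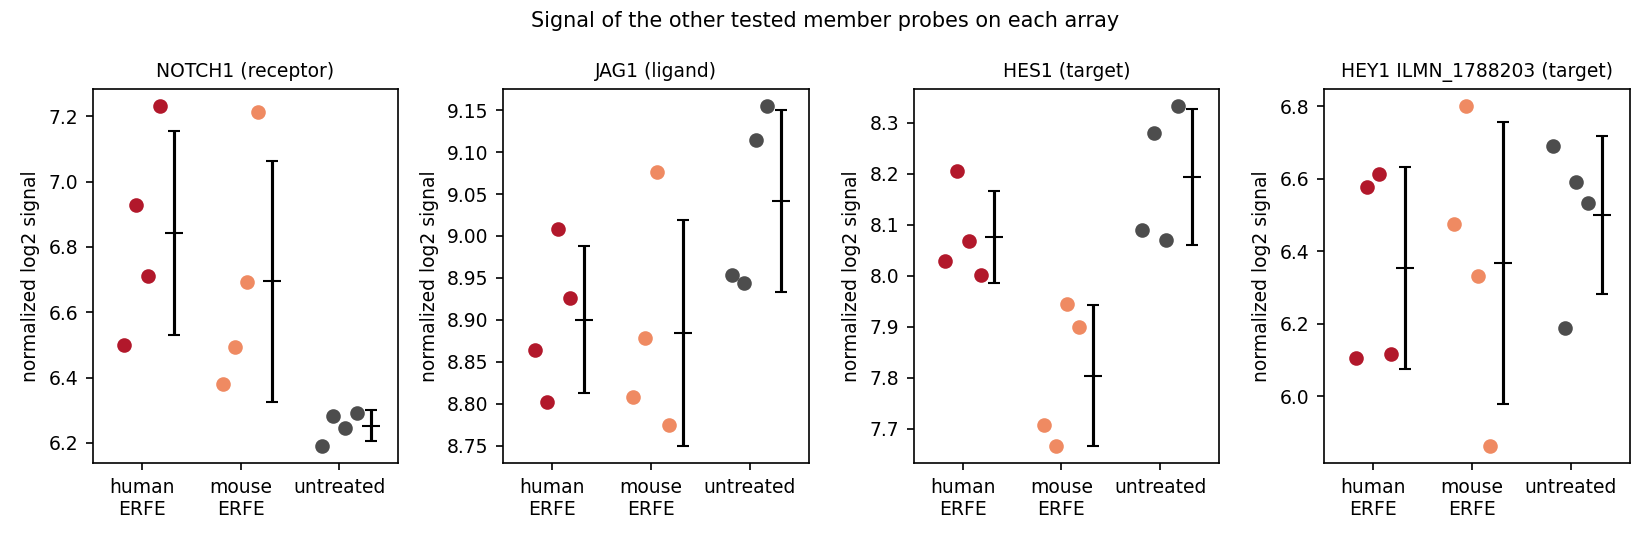
Normalized log2 signal (y axis, a separate range in each panel) of the tested probes of NOTCH1, JAG1, HES1 and HEY1 on the 4 human ERFE, 4 mouse ERFE and 4 untreated arrays, with mean and SD as bars. NOTCH1 values of both ERFE groups lie above the untreated values of 6.19 to 6.29, and HES1 values with mouse ERFE lie below all others.

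Side by side, the comparisons share the untreated arrays, so their values are not independent. In the human ERFE comparison 3 of the 7 tested member probes did not overlap, all higher: LFNG ILMN_1663080, LFNG ILMN_2268156 and NOTCH1. In the mouse ERFE comparison 4 did not overlap, 3 higher (LFNG ILMN_1663080, LFNG ILMN_2360401 and NOTCH1) and 1 lower (HES1). Between human and mouse ERFE 1 did not overlap, HES1, higher with human ERFE. These counts stand beside the shares of all probes given above, and LFNG's own part in the first 2 was fixed by how it was chosen. The filter also favoured the dim LFNG probes, which met it through the groups where they were high. Without LFNG the counts are 1 of 4 with human ERFE, 2 of 4 with mouse ERFE and 1 of 4 between the proteins.

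**Figure D4:**
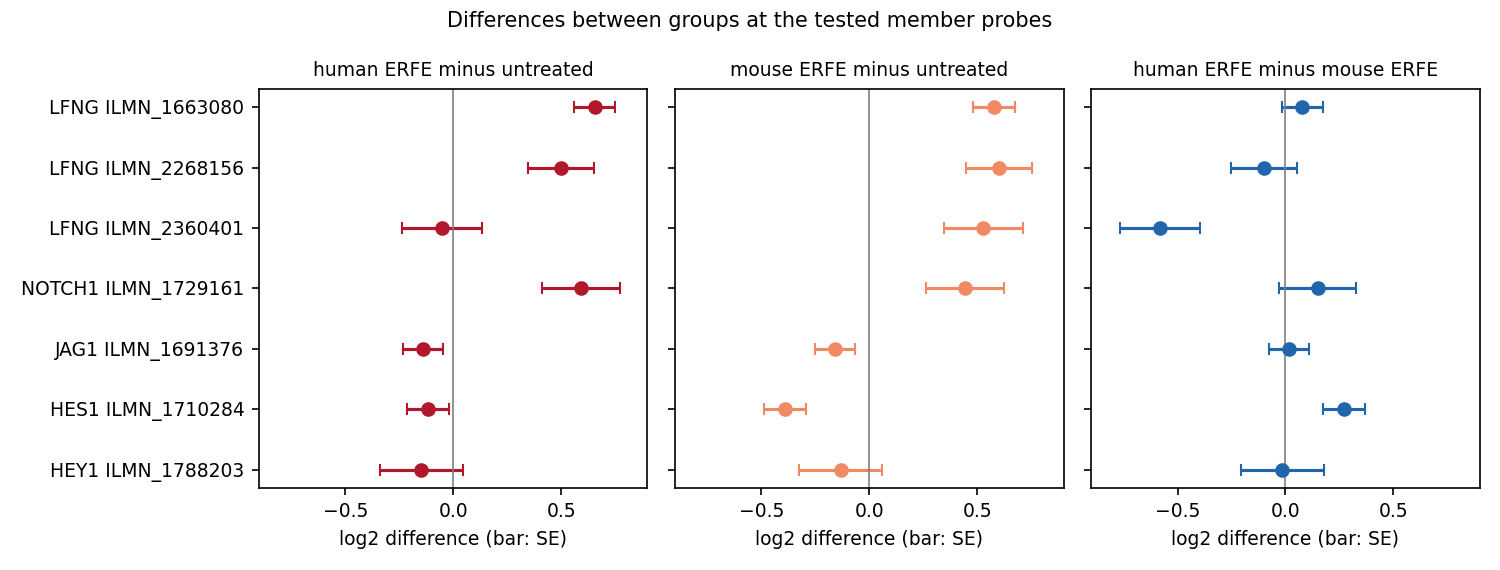
Log2 difference (x axis; point with SE bar) at the 7 tested member probes (rows) for human ERFE minus untreated, mouse ERFE minus untreated and human ERFE minus mouse ERFE, from the limma fit. LFNG ILMN_1663080 stands at 0.66 and 0.58 against untreated cells and at 0.08 between the proteins. LFNG ILMN_2360401, which met the filter only through mouse ERFE, stands at -0.58 between the proteins.

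The wider pathway was followed through 75 genes in 8 lists by role, which include the members. Of these, 71 had a probe and 46 genes, with 64 probes, could be tested. Leaving out the 3 LFNG probes, whose values against untreated cells were used to choose them, 61 probes remained. Of these 61, limma called 0 in any of the 3 comparisons. For background, 0.0268% of all probes were called higher with human ERFE and 0.0375% with mouse ERFE. An unadjusted p under 0.05 was met by 8 of the 61 with human ERFE (13.1%, against 6.64% of all probes), by 13 with mouse ERFE (21.3%, against 10.7%) and by 4 between human and mouse ERFE (6.56%, against 5% of all probes). The first 2 of these comparisons share the untreated arrays, and no test of the list was made. The median difference of the 61 probes was 0.01 with human ERFE and -0.01 with mouse ERFE, beside 0.00 and -0.00 over all 18646 tested probes.

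Among ligands, 4 probes of DLK1, DLK2 and JAG1 were tested, and their median difference was -0.06 with human ERFE and -0.24 with mouse ERFE. DLK1 and DLK2 are non-canonical ligands of the same family. DLK1 ILMN_1652975 differed by -0.14 with human ERFE (adjusted limma p 0.941) and -0.39 with mouse ERFE (adjusted limma p 0.454), and DLK2 by 0.05 (adjusted limma p 0.983) and -0.31 (adjusted limma p 0.401). The brighter DLK1 probe ILMN_1797519 was at 0.01 with human ERFE and -0.17 with mouse ERFE. The Delta-like ligands DLL1, DLL3 and DLL4 were too dim to test. NOTCH1 was the only receptor of 4 that was tested, since NOTCH4 was dim too.

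Among the sugar transferases that act on Notch, 12 probes of 6 genes were tested, with a median of 0.04 with human ERFE and 0.06 with mouse ERFE. The 3 LFNG probes are among them. GXYLT1, which adds xylose to the glucose on Notch, differed by 0.28 with human ERFE (adjusted limma p 0.742) and 0.26 with mouse ERFE (adjusted limma p 0.508).

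Of the proteases, which cut the receptor on its way to activation, 12 probes of 8 genes had a median of -0.01 with human ERFE and -0.06 with mouse ERFE, and 0 were called. ADAM10, the protease that cuts the receptor after ligand binding, differed at ILMN_1718946 by 0.34 with human ERFE (adjusted limma p 0.681) and 0.39 with mouse ERFE (adjusted limma p 0.317), and its second probe ILMN_2148360 by 0.03 and 0.40. APH1A, a subunit of gamma-secretase, differed at ILMN_2398388 by -0.24 with human ERFE (adjusted limma p 0.681) and -0.26 with mouse ERFE (adjusted limma p 0.350), while its other probe ILMN_1658472 was at -0.0026 and -0.15.

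The ubiquitin ligase and endocytosis genes gave a median of -0.05 with human ERFE and 0.04 with mouse ERFE over 13 probes, with 0 called. MIB2, a ligase that acts on ligands, differed at ILMN_2385178 by 0.37 with human ERFE (adjusted limma p 0.681) and at ILMN_2282077 by -0.31 (adjusted limma p 0.860), so its probes disagreed. With mouse ERFE these MIB2 probes were at 0.04 and -0.31. NEURL2 differed by -0.27 with human ERFE (adjusted limma p 0.856) and -0.17 with mouse ERFE (adjusted limma p 0.854). DTX2, a ligase of the Deltex family, differed by 0.38 with mouse ERFE (adjusted limma p 0.332) and 0.15 with human ERFE (adjusted limma p 0.902). EPN1, an endocytic adaptor, differed by 0.27 with mouse ERFE (adjusted limma p 0.663) and 0.23 with human ERFE (adjusted limma p 0.867).

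The nuclear complex, with RBPJ and its coactivators, had a median of 0.09 with human ERFE and 0.04 with mouse ERFE over 6 probes. RBPJ itself differed by 0.32 with mouse ERFE (adjusted limma p 0.571) and 0.11 with human ERFE (adjusted limma p 0.957). The coactivator MAML1 differed by 0.19 with human ERFE (adjusted limma p 0.838) and 0.22 with mouse ERFE (adjusted limma p 0.591). The acetyltransferase KAT2B differed by -0.18 with human ERFE (adjusted limma p 0.856) and -0.07 with mouse ERFE (adjusted limma p 0.933).

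Corepressors gave a median of 0.07 with human ERFE and 0.01 with mouse ERFE over 8 probes. TLE4 ILMN_2103761, of the Groucho family that HES proteins recruit, did not overlap untreated cells and differed by 0.44 with human ERFE (adjusted limma p 0.280) and 0.25 with mouse ERFE (adjusted limma p 0.379). The other TLE4 probe, the dimmer ILMN_1696704, overlapped and was at 0.11 with human ERFE and 0.06 with mouse ERFE. CTBP1 ILMN_2379734 differed by -0.25 with human ERFE (adjusted limma p 0.838) and -0.57 with mouse ERFE (adjusted limma p 0.224), while its other probe was at 0.00 and -0.01.

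Targets had a median of -0.13 in both ERFE comparisons over 8 probes of 7 genes, with 0 called. MYC, a growth regulator with many inputs besides Notch, differed at ILMN_1680618 by -0.35 with human ERFE (adjusted limma p 0.490) and -0.45 with mouse ERFE (adjusted limma p 0.149). Its second probe ILMN_2110908 differed by -0.38 with human ERFE (adjusted limma p 0.632) and -0.42 with mouse ERFE. HEY2, named after its values were seen, differed by 0.02 with human ERFE and 0.41 with mouse ERFE (adjusted limma p 0.295). For scale, a list of 6 BMP target genes that was chosen with results of these data known had 6 of 9 probes called lower with human ERFE and 5 with mouse ERFE, at medians of -0.74 and -0.66, where 0.0644% and 0.0858% of all probes were called lower.

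**Figure D5:**
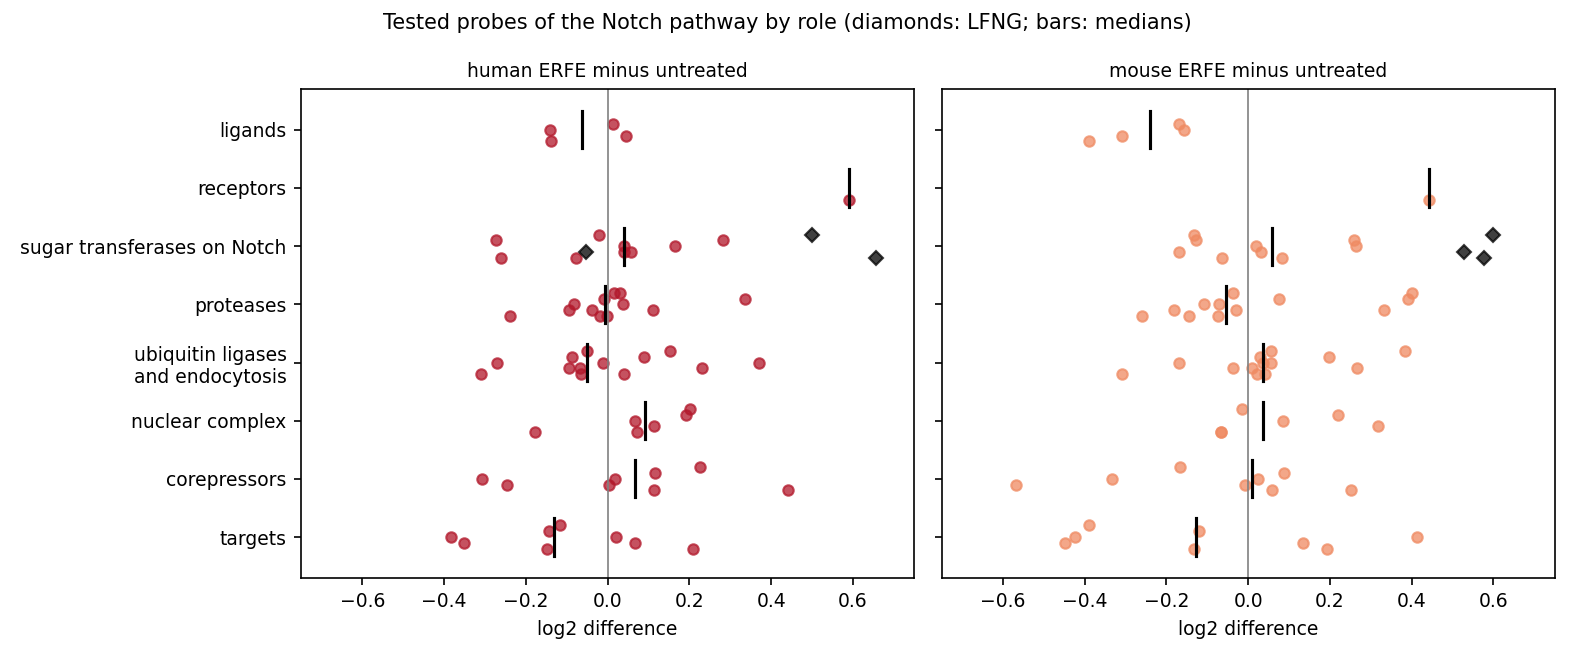
Log2 difference (x axis) of each tested probe of the Notch pathway, by role (rows), for human ERFE minus untreated and mouse ERFE minus untreated; diamonds are the 3 LFNG probes and bars the median of each list. List medians lie between -0.24 and 0.09 in all rows but the receptors, which hold NOTCH1 alone.

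Genes whose normalized signal followed LFNG ILMN_1663080 over the 12 arrays are given as a description. The arrays share their groups, so a correlation also counts the difference between them, and the value within groups is given beside it. Among 10890 other genes with 1 probe each, NUAK1 had Pearson's r of 0.92 (within groups 0.46), MACROH2A2 0.92 (0.67), ZNF664 0.92 (0.80), UBD 0.91 (0.47) and SERPINA3 0.91 (0.65). The lowest were MTURN at -0.97 (-0.80), ANXA1 at -0.93 (-0.88) and VCF1 at -0.93 (-0.56). NUAK1 is a protein kinase, MACROH2A2 a histone variant, UBD a ubiquitin-like protein and SERPINA3 an acute phase protease inhibitor. Among the members, r with the bright LFNG probe was 0.82 for LFNG ILMN_2268156 (within groups 0.47), 0.38 for LFNG ILMN_2360401 (0.68) and 0.82 for NOTCH1 (0.63). It was -0.43 for JAG1 (within groups 0.42), -0.43 for HES1 (0.49) and -0.37 for HEY1 (-0.44), so JAG1 and HES1 changed sign within groups.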

How the data were processed

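RNA of Huh7 cells was measured on 12 one-colour bead arrays, 4 per group by their titles. The deposited signal of each probe is a linear intensity, as the values show and per the file headers, and the deposited detection p-value compares each probe with negative controls. Tools named in the submitters' processing notes are lumi and limma, in roles that are not stated; the handling of background is not given in the sources used here. The 3 deposited tables held equal values (567876 of 567876).

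The neqc function (limma 3.58.1 under R 4.3.3, with statmod 1.5.0) corrected background, taking negative controls from the detection p, added an offset of 16 and applied quantile normalization. The filter asked for detection (p under 0.05) on 4 or more of the 12 arrays and left 18646 probes. A linear model of the 3 groups was fitted by probe with lmFit and eBayes, with 9 degrees of freedom from residuals and 3.50 from the prior, and two-sided p-values were adjusted by Benjamini-Hochberg over all kept probes, with a threshold of 0.05. The fit was tested on simulated data. Of all probes, 30113 had 1 symbol in the platform annotation, 8 several and 17202 none. Promoter windows came from a RefSeq table of GRCh38.p14.

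All member probes were named, and of the wider lists the called probes and the 2 with the smallest p per list and ERFE comparison. As most like LFNG, the 5 genes with the highest and the 3 with the lowest Pearson correlation were named. The members and lists were chosen with earlier results of these data known. Replicate numbers come from the titles. Deviations of same-numbered arrays correlated at -0.319 to 0.315, with 2 of 12 pairs over 0.1, so the numbers were not taken to pair arrays. Arrays have no depth; how many there are limits the precision. Alternatives tried were other background corrections, scalings, filters, probe rules, spread models and blocks, and leaving out each array.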

Additional observations from a re-analysis of the deposited data

How the results depend on the processing

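LFNG was chosen for its rise in these same arrays, which the alternatives use again, so the sign of that rise is only described. The difference of LFNG ILMN_1663080 from untreated cells was positive under all 28 alternatives in both ERFE comparisons, and over arrays left out in turn it was 0.60 to 0.68 with human ERFE and 0.52 to 0.63 with mouse ERFE. It was 0.54 with human ERFE with no background correction, and 0.37 on the mean of a gene's probes, where human minus mouse ERFE turned to -0.20. With mouse ERFE, 15 of the 28 alternatives called no probe higher, LFNG included. The dim probes depended on background: with no correction LFNG ILMN_2268156 was at 0.15 with human ERFE and 0.18 with mouse ERFE (0.35 with mouse ERFE at an offset of 50), and LFNG ILMN_2360401 at 0.16 with mouse ERFE. Against untreated cells LFNG ILMN_2360401 with human ERFE was positive in 5 of 25 alternatives, at 0.27 without the 6 arrays high in MHC class II, an alternative chosen after seeing the data that leaves 1 untreated array, assumed to vary like the others. Of 336 values of NOTCH1, JAG1, HES1 and HEY1, 0 passed the test and 13 changed sign. HEY1 with mouse ERFE ran from -0.28 to 0.04 over arrays left out (0.035 without mouse ERFE array 3-B4). Human minus mouse ERFE of HEY1 was 0.11 with median centring, 0.00129 with the replicate block, 0.016 without the 6 arrays and -0.18 to 0.13 over arrays left out, and that of JAG1 was -0.026 with array weights, -0.045 without the 6 arrays and -0.021 to 0.080 over arrays left out. Median centring moved the median of all probes by 0.07 with human ERFE, -0.06 with mouse ERFE and 0.13 between them.

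The number of all probes called depended strongly on the setting. With human ERFE it was 17, and 4 with median centring (1 higher, 3 lower), 29 with no background correction (12 higher, 17 lower), 26 with the stricter detection limit, 27 with 1 probe per gene or the mean of its probes, 31 with an intensity trend, 28 with array weights, 2 with only the 2 groups, 4 with the replicate block or the title letter, 2 with the title number, 0 without the 6 arrays (706 at an unadjusted p under 0.05 in limma), and 5 to 85 over arrays left out (85 without untreated array 4, 5 without untreated array 3). With mouse ERFE it was 23, and 4 with median centring (0 higher, 4 lower), 68 with no background correction, 47 with the stricter limit, 67 with an intensity trend, 5 with only the 2 groups, 2 with the replicate block or the class II covariate, 1 with the title letter, 3 with the arrays titled replicate 3 averaged, 0 with the title number and 0 without the 6 arrays (1583 and 774 at an unadjusted p under 0.05), and 1 to 273 over arrays left out (273 without untreated array 4). Between human and mouse ERFE it was 1, and 0 with only the 2 groups, the title number, the title letter or without the 6 arrays (890, 1270, 1107 and 807 at an unadjusted p under 0.05), and 0 to 1 over arrays left out. The cause was not tested.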
